A study of Mus musculus with 9 samples.

Results

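The genes of oxidative phosphorylation were followed in the jejunum of 9 mice: the subunits of respiratory complexes I to V, together with 9 nuclear assembly factors whose symbols share the same stems. Members were taken by name, as protein-coding genes whose mouse symbol starts with Nduf, Uqcr, Atp5, Sdha to Sdhd or Cox4 to Cox8, plus the mitochondrially encoded mt-Nd, mt-Co, mt-Cytb and mt-Atp genes. A level of at least 1 FPKM (fragments per kilobase of exon, scaled to the library total) in at least 3 of the 9 mice was also required. Of 31685 genes in the table, 107 matched the names and 99 were members, 86 encoded in the nucleus and 13 in the mitochondrial genome. The members nearest the FPKM limit from inside were Ndufaf2 and Ndufaf7, which reached 1.72 and 3.07 FPKM in 3 mice. Ndufb2, Cox4i2, Cox6a2, Cox8b and Ndufa4l2 lay outside it, with highest values between 0.499 FPKM (Cox6a2) and 1.52 FPKM (Cox8b), reached in under 3 mice, and 3 further matches were annotated as processed pseudogenes.

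The mice were wild-type C57BL/6J, described in the study's methods as young adult males, and jejunum was taken on day 3. The 3 control mice were untreated. The 3 TAI mice received total abdominal irradiation, a single 12 Gy X-ray dose at 75 cGy/min with the rest of the body shielded, and, by the study's methods, phosphate-buffered saline. All 9 libraries carry 1 batch label. The 3 TAI/IVIg mice received the same irradiation and an injection into a vein of human immunoglobulin (IVIg) at 500 mg/kg within 1 hour, on a schedule of every 3 days.

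Oxidative phosphorylation makes most of the ATP of respiring cells. Complex I (NADH dehydrogenase) and complex II (succinate dehydrogenase) pass electrons to ubiquinone, complex III passes them to cytochrome c and complex IV to oxygen, and ATP synthase (complex V) uses the proton gradient that complexes I, III and IV build. All complexes except II hold subunits from both genomes, so nuclear and mitochondrial transcripts of 1 complex are made in separate compartments. In the small intestine, absorptive enterocytes on the villi and dividing crypt cells both carry this machinery.

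The label calls the tissue jejunal epithelial tissue. All 12 enterocyte markers fixed for the check passed the filter, and so did all 9 smooth muscle and all 8 stromal markers, so RNA of other tissue layers was present. Summed enterocyte marker FPKM was 14565 to 23240.3 in control mice, 32284 to 52977 in TAI mice and 47616 to 51488 in TAI/IVIg mice. Of those markers, 7 of 12 were called higher in TAI mice and 0 lower, whereas 10 of 10 proliferation markers were called lower, with summed levels of 65.4 to 159 FPKM in control mice, 24.0 to 32.5 FPKM in TAI mice and 18.3 to 30.5 FPKM in TAI/IVIg mice. None of these markers was under 1 FPKM in all mice, and the part of this shift in the values that follow was not tested. In bulk tissue, fewer cells of a type and less RNA per cell cannot be told apart. Reads recovered from the FPKM values of the listed genes numbered 16284531 to 18244739 per library, and reads outside those genes are not known. The labels number 3 samples per group, and p-values measure the spread between those samples.

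The nuclear members took a smaller share of the reads, and the mitochondrial members a larger one, in the irradiated than in the control mice. The 86 nuclear members took 1.35%, 1.62% and 1.36% of all recovered reads in the control mice, 0.705%, 0.785% and 0.748% in the TAI mice and 0.709%, 1.03% and 1.05% in the TAI/IVIg mice. The 13 mitochondrially encoded members took 3.13%, 2.65% and 2.80% in the control mice, 4.85%, 5.24% and 4.36% in the TAI mice and 4.32%, 5.40% and 7.26% in the TAI/IVIg mice. On both measures every irradiated mouse lay outside the control range, and TAI/IVIg mouse 1 lay with the TAI mice on the nuclear measure. With 3 mice against 3, an exact permutation test of such a share cannot give a p below 0.10, so none is given.

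**Figure D1:**
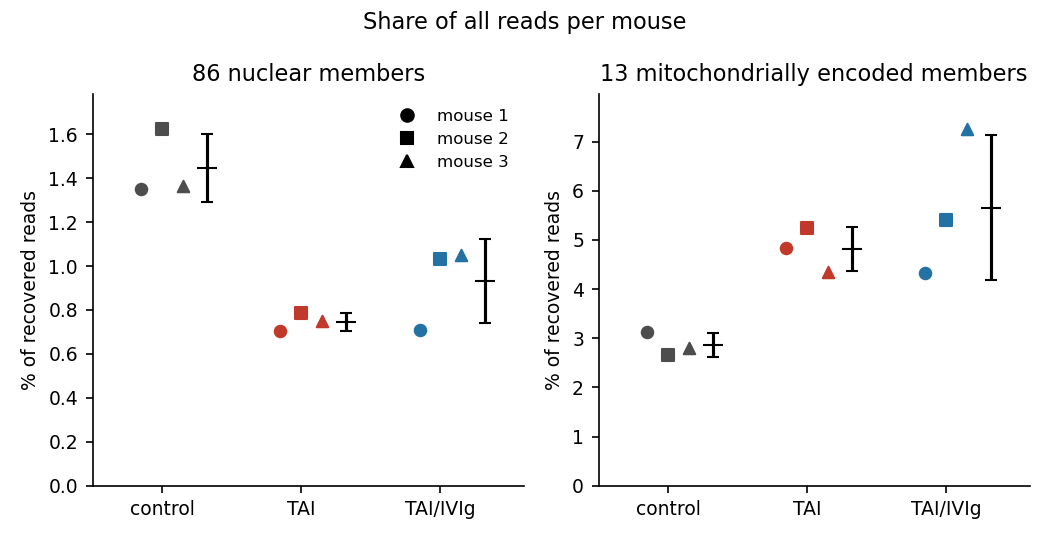
Percentage of all recovered reads per mouse that came from the 86 nuclear members (left) and the 13 mitochondrially encoded members (right); points are mice 1 to 3 of each group, and the bar beside them is the mean with SD (n = 3). Nuclear shares fall from 1.35 to 1.62% in control mice to 0.705 to 0.785% in TAI mice, while mitochondrial shares rise from 2.65 to 3.13% to 4.36 to 5.24%.

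Gene by gene, the comparison of TAI with control mice asked which members irradiation had moved by day 3. By limma on log2(FPKM + 1) with Benjamini-Hochberg adjustment over all 13056 genes tested, 78 of the 99 members were called lower at an adjusted p under 0.05, where 26.1% of all genes tested were, and 7 were called higher, where 8.81% of all genes were. All 78 lower calls were nuclear. The 7 higher calls were 5 mitochondrial genes and the nuclear Cox6b2 and Cox7a1. The median log2 fold change was -0.90 over the nuclear members and 0.99 over the mitochondrial members, beside -0.24 over all genes tested; on this scale the change of low genes is understated. With the library medians set equal the nuclear median was -0.61 with 39 lower calls. The mitochondrial median was then 1.28, with 9 higher calls over both genomes. Of all 13056 genes tested, 1823 were called lower and 2159 higher under that scaling, and their median was 0.05 in place of -0.24. With equal library medians 15 of the 44 named calls were lost, those of Sdhb, Uqcrb, Uqcrc1, Uqcrh, Cox4i1, Cox6a1, Cox6b1, Cox7a2l, Cox7b, Cox8a, Ndufa4, Ndufaf2, Ndufaf8, Atp5d and Atp5g3. None of the 85 called members changed sign under any scaling tried.

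**Figure D2:**
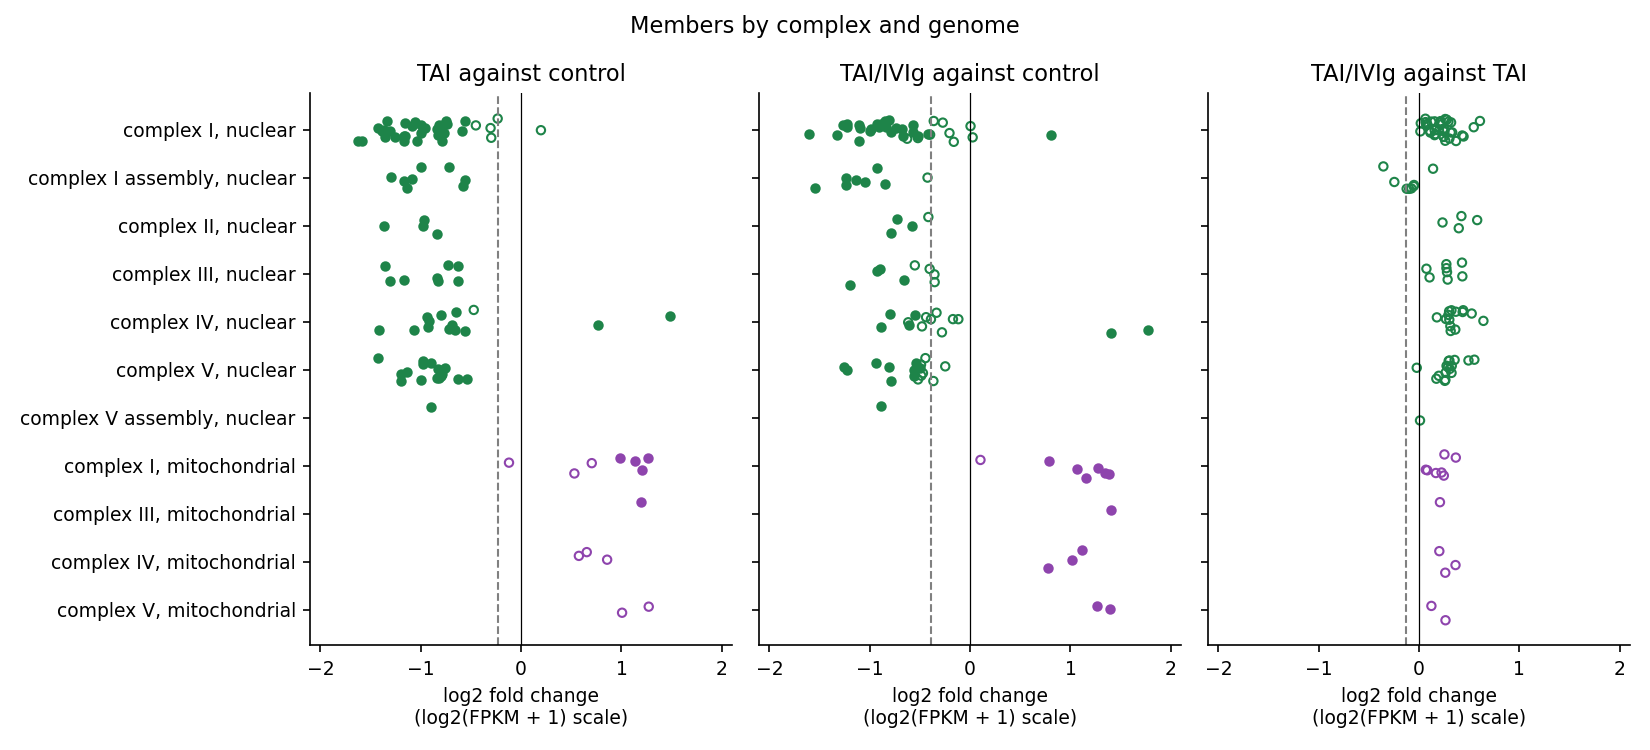
Log2 fold change of each of the 99 members (log2(FPKM + 1) scale), by complex and by the genome that encodes it, for the 3 comparisons; filled points have a limma adjusted p under 0.05, open points do not, and the dashed line is the median of all 13056 genes tested. Nuclear members lie left of 0 in both comparisons with control mice apart from 3 in TAI and 5 in TAI/IVIg mice, mitochondrial members lie right of it apart from mt-Nd3 in TAI mice, and no point is filled in the comparison of TAI/IVIg with TAI mice.

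By nuclear subunits, complex I had the lowest median of the 5 complexes, close to that of complex II. Of its 35 nuclear subunits, 30 were called lower in TAI mice and 0 higher, with a median log2 fold change of -1.0. The 7 nuclear core subunits, which include those that carry the flavin and iron-sulfur clusters, were all called lower (median -1.33), and 23 of the 28 accessory subunits were (median -0.83). Ndufc2, an accessory subunit of the membrane arm, stood at 124, 153 and 132 FPKM in the control mice, 44.5, 49.0 and 40.6 FPKM in the TAI mice and 42.8, 60.5 and 59.4 FPKM in the TAI/IVIg mice. All irradiated mice lay below the lowest control mouse (log2 fold change -1.59 ± 0.16 SE, limma adjusted p = 0.00056). Ndufv2, a core subunit of the NADH-oxidising module, was at 82.5, 89.8 and 84.1 FPKM in control mice against 29.5, 34.4 and 34.4 FPKM in TAI mice (log2 fold change -1.36 ± 0.15 SE, limma adjusted p = 0.000759). Ndufb8, an accessory subunit often used to follow complex I protein, went from 33.8 ± 4.21 to 14.6 ± 0.77 FPKM (mean ± SD, n = 3; log2 fold change -1.15 ± 0.14 SE, limma adjusted p = 0.00108). Ndufab1, the mitochondrial acyl carrier protein and by listed FPKM the least abundant nuclear subunit of the complex, went from 10.8 ± 1.42 to 4.55 ± 0.462 FPKM (adjusted p = 0.00423, limma). The size of the fall was not even: Ndufa10 had the lowest fold change of all members at -1.62.

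The other 5 nuclear complex I subunits were not called in TAI mice: Ndufa1, Ndufa2, Ndufa3, Ndufa7 and Ndufa13, with log2 fold changes from -0.45 (Ndufa13) to 0.20 (Ndufa1). Ndufa1, a small membrane subunit encoded on the X chromosome, was the most abundant nuclear subunit of the complex by its mean over all 9 mice, though Ndufc2 was in the control mice. Its values were 60.6, 66.4 and 57.8 FPKM in the control mice, 57.7, 79.0 and 77.3 FPKM in the TAI mice and 81.4, 109 and 142 FPKM in the TAI/IVIg mice. The TAI mice overlapped the control mice, whereas all 3 TAI/IVIg mice were above both other groups. Against control mice the TAI/IVIg value was called higher (log2 fold change 0.80 ± 0.21 SE, limma adjusted p = 0.0139), the only such call among nuclear complex I genes.

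The 8 complex I assembly factors, proteins that build the complex and leave it, were all called lower in TAI mice, with a median log2 fold change of -1.04. Ndufaf1, which works on the membrane arm, was at 9.35, 11.6 and 11.3 FPKM in control mice, 3.65, 4.62 and 4.78 FPKM in TAI mice and 3.15, 4.71 and 4.21 FPKM in TAI/IVIg mice (log2 fold change -1.14 ± 0.16 SE, limma adjusted p = 0.00183 for TAI). Ndufaf4 was at 8.44, 11.4 and 11.1 FPKM in control mice, 3.14, 4.31 and 3.32 FPKM in TAI mice and 1.90, 4.13 and 2.83 FPKM in TAI/IVIg mice (log2 fold change -1.55 ± 0.22 SE, limma adjusted p = 0.00114 for TAI/IVIg against control). For neither factor did an irradiated mouse reach the control range. Ndufaf3, the assembly partner of Ndufaf4, had a log2 fold change of -1.08 in TAI mice (adjusted p = 0.00214, limma) and Ndufaf6 one of -1.16 (adjusted p = 0.00159). The smallest change was that of Ndufaf8, the most abundant factor, at -0.56 (adjusted p = 0.0266), a call that was lost without control mouse 2, control mouse 3 or any 1 TAI mouse. Ndufaf2, a late assembly factor and the least abundant, was at 1.72, 3.36 and 2.58 FPKM in control and 0.902, 1.32 and 1.14 FPKM in TAI mice, and its call (adjusted p = 0.0171, limma) was lost without control mouse 2, control mouse 3 or TAI mouse 1. The exons of Ndufaf2 are shared with a gene on the other strand over 65.6% of their length.

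All 4 subunits of complex II, the one complex with no mitochondrially encoded subunit, were called lower in TAI mice (median -0.97). The membrane anchor Sdhd was the most abundant, at 299, 293 and 271 FPKM in control mice, 106, 117 and 109.9 FPKM in TAI mice and 109, 200.03 and 209.7 FPKM in TAI/IVIg mice. TAI/IVIg mouse 1 sat among the TAI mice and mice 2 and 3 lay between the groups (log2 fold change -1.37 ± 0.23 SE, limma adjusted p = 0.00347 for TAI). Sdha, the flavoprotein that oxidises succinate, fell from 113 ± 8.86 to 57.6 ± 6.34 FPKM (adjusted p = 0.00485, limma). The other anchor, Sdhc, went from 73.8 ± 7.34 to 36.9 ± 1.44 FPKM (adjusted p = 0.00264), and the iron-sulfur subunit Sdhb from 71.7 ± 12.1 to 39.3 ± 2.57 FPKM (adjusted p = 0.0108).

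In complex III, 8 of 8 nuclear subunits were called lower in TAI mice, with a median log2 fold change of -0.83. Uqcrfs1, the Rieske iron-sulfur protein, read 199, 205 and 188 FPKM in the control mice, 72.8, 78.6 and 77.3 FPKM in the TAI mice and 73.7, 120.3 and 124 FPKM in the TAI/IVIg mice. The control and TAI groups were far apart compared with their spread (log2 fold change -1.36 ± 0.19 SE, limma adjusted p = 0.00177). Uqcrc2, a core subunit, had a log2 fold change of -1.31 (adjusted p = 0.00246, limma) and Uqcr10, a small subunit, one of -1.17 (adjusted p = 0.00371). The most abundant subunit, Uqcrb, moved least, from 237 ± 35.8 to 153 ± 16.5 FPKM (log2 fold change -0.63, adjusted p = 0.0145, limma); its call was lost without control mouse 2 or TAI mouse 1. Uqcrc1, the other core subunit and, by mean FPKM, the least abundant, had a log2 fold change of -0.84 (adjusted p = 0.0232) that was not called without control mouse 2, control mouse 3, TAI mouse 1 or TAI mouse 3. Uqcrh, the hinge protein, changed by -0.83 (adjusted p = 0.0134), a call lost without TAI mouse 1.

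Complex IV, cytochrome c oxidase, was the only complex with nuclear members called in both directions in TAI mice: 11 of 14 were lower, 2 were higher and Cox6c was not called. Cox5a was at 77.4, 82.3 and 75.8 FPKM in control mice, 27.1, 28.6 and 30.7 FPKM in TAI mice and 32.6, 44.0 and 51.0 FPKM in TAI/IVIg mice. The 3 groups did not overlap, with TAI mice lowest (log2 fold change -1.42 ± 0.16 SE, limma adjusted p = 0.00084 for TAI). Cox5b had a log2 fold change of -1.07 (adjusted p = 0.00215, limma). Cox6a1, the most abundant nuclear subunit by its mean over all 9 mice but below Cox6b1 in the control mice, was at 374, 430.1 and 349 FPKM in control and 242, 260.2 and 278 FPKM in TAI mice; its call (adjusted p = 0.0487, limma) was lost without any 1 control or TAI mouse and without TAI/IVIg mouse 2. Cox4i1 went from 292 ± 28.1 to 186 ± 18.1 FPKM (adjusted p = 0.0214), Cox8a from 373 ± 25.7 to 232 ± 24.8 FPKM (adjusted p = 0.0155) and Cox7b from 150.2 ± 22.8 to 77.7 ± 10.4 FPKM (adjusted p = 0.0171). All 3 of these calls were lost without control mouse 2 or TAI mouse 1; that of Cox4i1 was also lost without control mouse 3 or TAI mouse 2, and that of Cox7b without TAI mouse 3. Ndufa4, now counted as a complex IV subunit, changed by -0.72 (adjusted p = 0.014), also lost without control mouse 2 or TAI mouse 1.

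The 2 rising nuclear members are tissue isoforms of subunits whose common isoform fell. Cox7a1 is known as the heart and muscle isoform of the subunit that Cox7a2 supplies elsewhere. Its level was 34.3, 34.3 and 24.7 FPKM in the control mice, 45.2, 52.1 and 62.7 FPKM in the TAI mice and 74.0, 81.8 and 94.4 FPKM in the TAI/IVIg mice. The groups did not overlap (log2 fold change 0.76 ± 0.18 SE, limma adjusted p = 0.0125 for TAI; 1.403, adjusted p = 0.000784 for TAI/IVIg against control). Cox7a2 fell from 139 ± 18.4 to 72.7 ± 5.13 FPKM in TAI mice (adjusted p = 0.00557, limma). Cox7a1 FPKM as a percentage of Cox7a2 FPKM was 26.6, 21.3 and 19.3 in control mice, 67.6, 69.5 and 82.3 in TAI mice and 106, 81.1 and 90.2 in TAI/IVIg mice. So per kilobase the minor isoform came closer to the common one in the irradiated than in the control mice. It passed the common isoform in TAI/IVIg mouse 1 only.

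Cox6b2, known for its expression in testis, is the counterpart of Cox6b1. It stood at 10.02, 12.4 and 8.24 FPKM in control mice, 27.4, 21.3 and 45.5 FPKM in TAI mice and 43.6, 27.8 and 41.3 FPKM in TAI/IVIg mice. Every irradiated mouse was above every control mouse (log2 fold change 1.48 ± 0.28 SE, limma adjusted p = 0.00558 for TAI; 1.77, adjusted p = 0.00184 for TAI/IVIg). Cox6b1 went from 387 ± 33.8 to 205 ± 20.7 FPKM (adjusted p = 0.00885, limma), and the Cox6b2 percentage of Cox6b1 was 2.63 ± 0.323 in control mice, 15.2 ± 4.96 in TAI mice and 14.8 ± 6.39 in TAI/IVIg mice (SD, n = 3). Calls for Cox6b2 and Cox7a1 against control mice held without any 1 mouse and under every alternative tried.

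Other muscle-type isoforms stayed near the limit of detection. Cox6a2 was at most 0.499 FPKM and Cox8b at most 1.52 FPKM in any mouse. Cox4i2, the hypoxia-linked counterpart of Cox4i1, was 0.438, 0.287 and 0.22 FPKM in control mice, 0.889, 0.857 and 0.974 FPKM in TAI mice and 0.353, 0.672 and 0.0757 FPKM in TAI/IVIg mice, below the filter. Cox7a2l, a supercomplex assembly factor of the same family, was 46.2 ± 9.74% of Cox7a2 in control mice, 54.7 ± 2.91% in TAI mice and 49.9 ± 5.05% in TAI/IVIg mice (SD, n = 3), differences within the spread of the control mice. Of 9 striated muscle and fat markers listed, Mb, Cidea, Ucp1, Myh2, Myh7 and Tnnt3 were below 1 FPKM in all mice, and the summed level of all 9 was 5.77 to 12.7 FPKM in control mice, 15.5 to 77.2 FPKM in TAI mice and 3.77 to 15.03 FPKM in TAI/IVIg mice. The 3 listed markers that passed the filter all had positive log2 fold changes in TAI mice, and 1 of 3 did in TAI/IVIg mice. Acta1, the skeletal muscle actin, was called higher in both: it was at 0.375, 0.958 and 0.376 FPKM in control mice, 4.64, 2.44 and 15.1 FPKM in TAI mice and 6.19, 3.18 and 2.68 FPKM in TAI/IVIg mice (log2 fold change 2.13, limma adjusted p = 0.0128 for TAI; 1.63, adjusted p = 0.0271 for TAI/IVIg). Acta1 passed the filter through the irradiated mice only, as no control mouse reached 1 FPKM. The part of these markers in the Cox7a1 and Cox6b2 values was not tested. Summed smooth muscle marker level was 557 to 696 FPKM in control mice, 596 to 852 FPKM in TAI mice and 135 to 611 FPKM in TAI/IVIg mice. The sum was lowest in TAI/IVIg mouse 3 and highest in TAI mouse 3, each the mouse of highest Cox7a1 in its group. The part of smooth muscle in the Cox7a1 values was not tested.

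**Figure D3:**
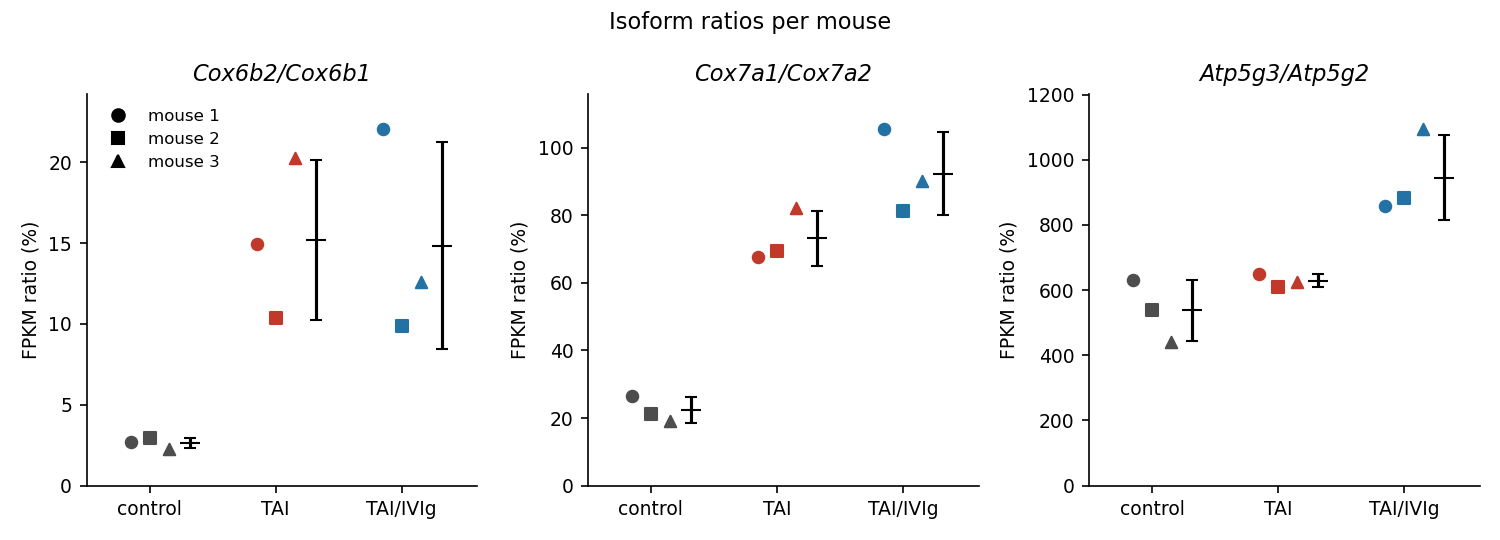
FPKM of one isoform as a percentage of the FPKM of its counterpart in each mouse, for Cox6b2 over Cox6b1, Cox7a1 over Cox7a2 and Atp5g3 over Atp5g2; points are mice 1 to 3 of each group with the mean and SD (n = 3) beside them. The Cox6b2 and Cox7a1 ratios lie higher in every irradiated mouse than in every control mouse, and the Atp5g3 ratio is highest in the TAI/IVIg mice (858 to 1094%).

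The promoters of these isoform pairs are shown because their genes moved in opposite directions; each is 250 bases before to 50 bases after the RefSeq start (GRCm38.p6), read 5′ to 3′ on the gene's strand. Capitals mark any of 5 short cores searched on both strands: NRF1 (GCATGCG), ETS or GABPA (CCGGAAG), SP (GGGCGG), YY1 (ATGGCG) and ERRA (AAGGTCA). Sdhd, the most abundant complex II subunit, is added as a falling gene with 3 of the cores. The windows are chr7:30626065-30626364 (minus strand) for Cox6b1, chr7:4753045-4753344 (minus) for Cox6b2, chr9:79759804-79760103 (minus) for Cox7a2, chr7:30183921-30184220 (plus) for Cox7a1 and chr9:50603800-50604099 (minus) for Sdhd.
Cox6b1: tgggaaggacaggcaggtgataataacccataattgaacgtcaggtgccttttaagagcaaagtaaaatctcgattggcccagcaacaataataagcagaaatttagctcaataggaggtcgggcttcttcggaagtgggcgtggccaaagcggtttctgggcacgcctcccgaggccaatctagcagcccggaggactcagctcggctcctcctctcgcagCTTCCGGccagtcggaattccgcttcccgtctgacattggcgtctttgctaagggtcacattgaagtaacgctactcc
Cox6b2: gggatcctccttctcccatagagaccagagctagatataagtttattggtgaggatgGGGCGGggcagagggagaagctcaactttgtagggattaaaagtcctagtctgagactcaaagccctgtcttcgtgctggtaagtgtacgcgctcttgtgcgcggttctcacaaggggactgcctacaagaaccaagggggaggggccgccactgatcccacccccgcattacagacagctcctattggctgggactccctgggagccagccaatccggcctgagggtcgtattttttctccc
Cox7a2: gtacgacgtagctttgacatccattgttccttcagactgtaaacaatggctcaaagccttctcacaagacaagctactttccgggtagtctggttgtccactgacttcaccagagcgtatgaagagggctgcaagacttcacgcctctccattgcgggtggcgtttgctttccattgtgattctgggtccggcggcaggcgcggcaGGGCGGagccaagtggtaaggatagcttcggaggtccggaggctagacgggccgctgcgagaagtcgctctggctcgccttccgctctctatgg
Cox7a1: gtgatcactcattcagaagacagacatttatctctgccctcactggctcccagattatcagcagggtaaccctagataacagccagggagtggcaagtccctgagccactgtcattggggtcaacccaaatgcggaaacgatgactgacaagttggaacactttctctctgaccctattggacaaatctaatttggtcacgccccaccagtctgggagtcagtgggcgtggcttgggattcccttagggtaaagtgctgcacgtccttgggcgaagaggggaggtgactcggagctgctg
Sdhd: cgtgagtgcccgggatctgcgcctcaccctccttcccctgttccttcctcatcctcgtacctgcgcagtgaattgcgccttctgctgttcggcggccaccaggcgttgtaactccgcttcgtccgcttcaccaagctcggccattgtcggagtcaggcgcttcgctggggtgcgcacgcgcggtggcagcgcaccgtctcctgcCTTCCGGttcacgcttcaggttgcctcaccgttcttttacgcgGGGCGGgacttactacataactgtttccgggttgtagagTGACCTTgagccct

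The Cox6b1 window held an ETS core, Cox6b2 and Cox7a2 an SP core each, Cox7a1 none of the 5 and Sdhd an ETS, an SP and an ERRA core. Over the 78 promoters found for 73 nuclear members, an NRF1 core was in 16.7%, beside 3.58% of all 32851 promoters and 6.03% of those of genes tested. The ETS core was in 23.1%, beside 8.86% and 17.3%, the YY1 core in 28.2%, beside 8.93% and 14.5%, and the ERRA core in 8.97%, beside 4.72% and 3.33%. The SP core was in 44.9%, beside 35.7% of all and 61.5% of those of genes tested. An NRF1 or ETS core was in 32.1% of the nuclear member promoters, beside 11.8% of all and 22% of those of genes tested. By complex, NRF1 or ETS was in 21.2% of 33 complex I promoters, 57.1% of 7 assembly factor promoters, 66.7% of 3 complex II, 60% of 5 complex III, 25% of 12 complex IV and 35.3% of 17 complex V promoters. The shares of complexes I and IV were thus near that of genes tested, and the highest shares rest on few promoters. The NRF1 core overlaps its own reverse complement by all but 1 base, so both strands often matched at 1 place. A match describes these letters only.

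All 16 nuclear subunits of complex V, ATP synthase, were called lower in TAI mice (median log2 fold change -0.87). The catalytic beta subunit Atp5b was the most abundant by its mean over all 9 mice, though not in the control mice alone, where Atp5a1 was; Atp5b was at 397, 480.5 and 369.8 FPKM in control mice, 218, 235 and 177 FPKM in TAI mice and 201, 284 and 240.3 FPKM in TAI/IVIg mice. No irradiated mouse reached the control range (log2 fold change -0.98 ± 0.18 SE, limma adjusted p = 0.0051 for TAI). Its partner Atp5a1, the alpha subunit, had a log2 fold change of -1.20 (adjusted p = 0.0042, limma), and Atp5f1, a subunit of the peripheral stalk, one of -1.13 (adjusted p = 0.00179). Atp5d, the delta subunit of the central stalk, moved least, at -0.54 (adjusted p = 0.0417), and its call was lost without any 1 control or TAI mouse. The assembly-related Atp5s was also called lower (-0.90, adjusted p = 0.0079).

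The membrane ring of ATP synthase is built of c subunits, whose identical mature protein comes from Atp5g1, Atp5g2 and Atp5g3. Atp5g1, by listed FPKM the least abundant complex V subunit, was at 14.3, 22.6 and 17.9 FPKM in control mice. It was at 5.91, 7.45 and 5.02 FPKM in TAI mice and 4.27, 9.14 and 8.41 FPKM in TAI/IVIg mice (log2 fold change -1.42 ± 0.27 SE, limma adjusted p = 0.00543 for TAI). Atp5g2 read 35.9, 51.9 and 52.4 FPKM, 17.2, 21.3 and 20.1 FPKM and 14.4, 23.2 and 20.9 FPKM in the same order of groups, with no overlap between irradiated and control mice (log2 fold change -1.20 ± 0.21 SE, limma adjusted p = 0.00384 for TAI). Atp5g3 supplied most of the message, at 226, 280.3 and 232 FPKM in control mice, 112, 129.9 and 126 FPKM in TAI mice and 124, 205 and 229 FPKM in TAI/IVIg mice. Unlike the other pair, TAI/IVIg mouse 3 lay within the control range of Atp5g3. Atp5g3 was 79.2 ± 2.58% of the summed c-subunit FPKM in control mice, 82.7 ± 0.749% in TAI mice and 87.3 ± 1.19% in TAI/IVIg mice (SD, n = 3).

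**Figure D4:**
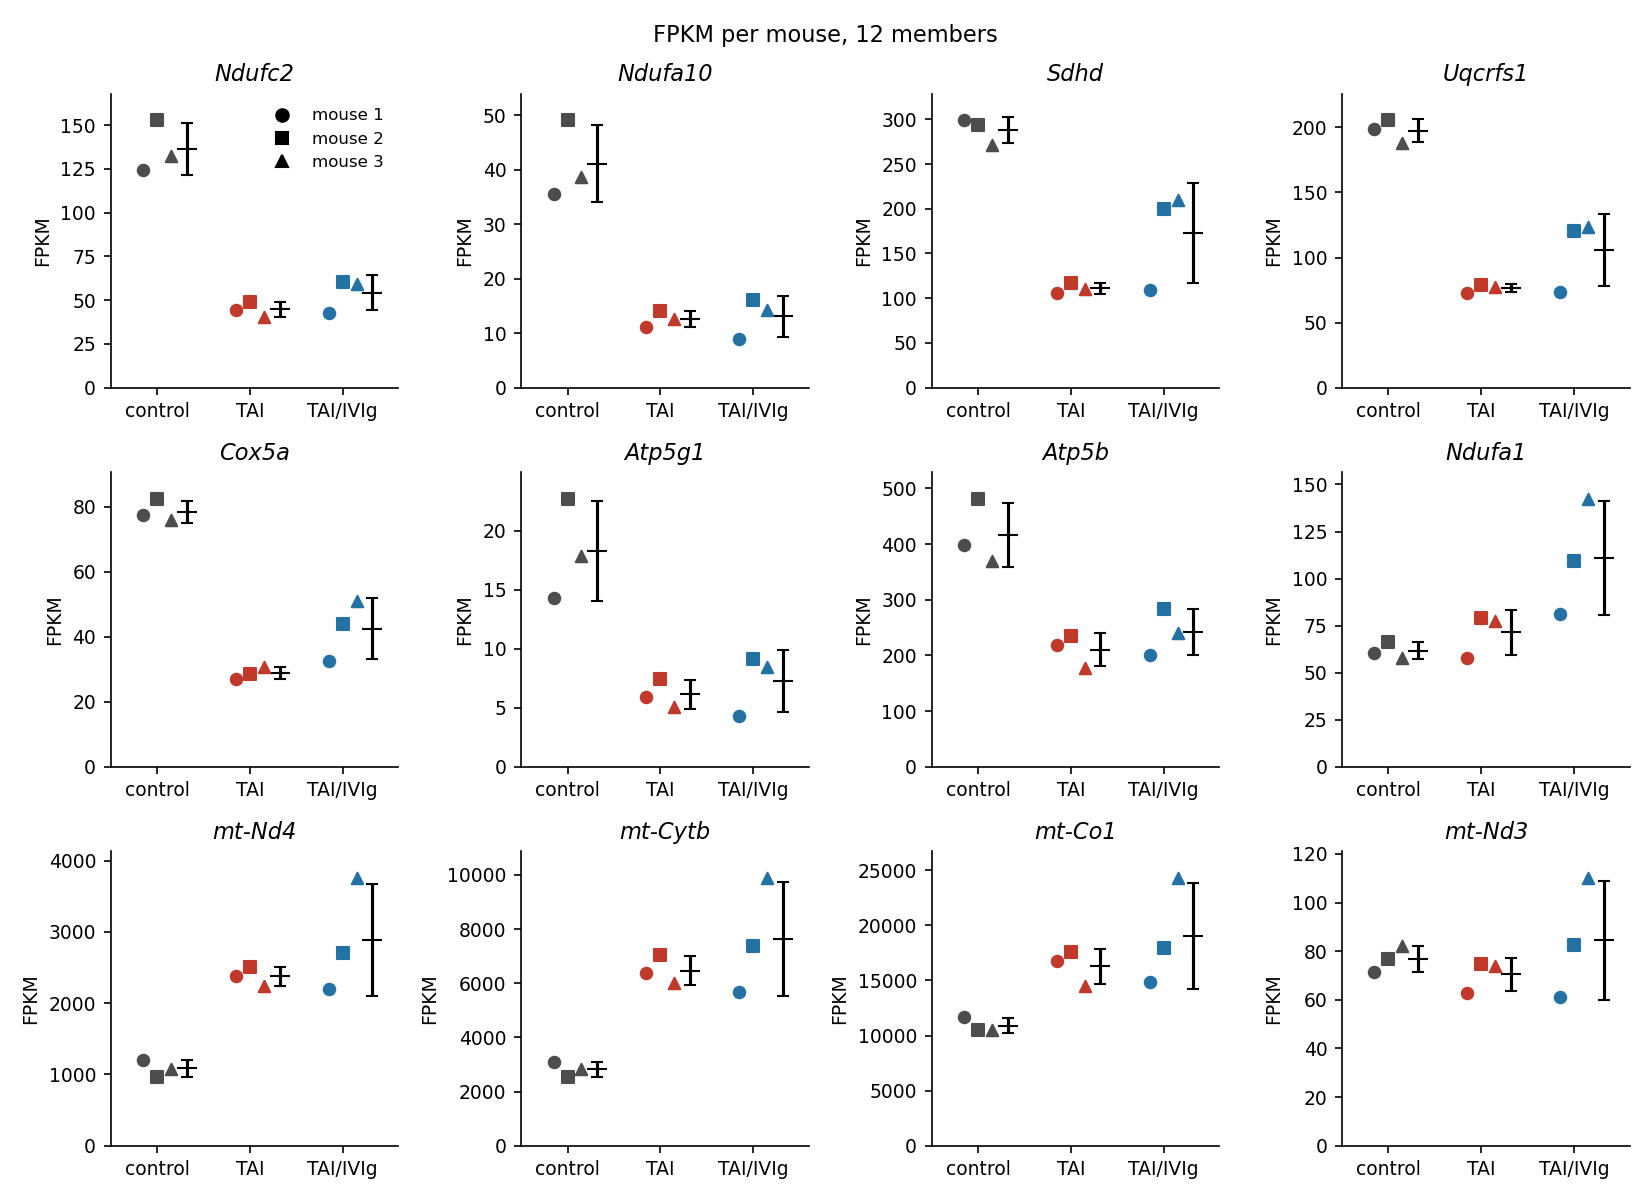
FPKM of 12 members in each mouse, chosen to span the complexes and both genomes; points are mice 1 to 3 of each group, and the bar is the mean with SD (n = 3), each panel on its own axis from 0. The first 7 panels show nuclear genes lower in all irradiated mice, Ndufa1 is highest in TAI/IVIg mice, and the last 4 are mitochondrially encoded, of which mt-Nd4, mt-Cytb and mt-Co1 are higher in all irradiated mice and mt-Nd3 overlaps.

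Among the 13 mitochondrially encoded members, 12 had a positive log2 fold change in TAI mice and 5 were called higher: mt-Nd2, mt-Nd4, mt-Nd4l, mt-Nd5 and mt-Cytb. With no filter, 2 were called, mt-Nd4 and mt-Nd5. Apart from mt-Cytb, the cytochrome b of complex III, these are subunits of the membrane arm of complex I. mt-Cytb was at 3099, 2551 and 2815 FPKM in the control mice, 6374, 7029 and 6005 FPKM in the TAI mice and 5690.3, 7381 and 9879 FPKM in the TAI/IVIg mice. Every irradiated mouse was higher than every control mouse (log2 fold change 1.20 ± 0.25 SE, limma adjusted p = 0.00747 for TAI). mt-Nd4 was at 1208, 964 and 1082 FPKM in control mice, 2375, 2509 and 2247 FPKM in TAI mice and 2205, 2703 and 3755 FPKM in TAI/IVIg mice, again with no irradiated mouse in the control range (log2 fold change 1.14 ± 0.22 SE, limma adjusted p = 0.00611 for TAI). mt-Nd5 had a log2 fold change of 1.27 ± 0.23 SE (adjusted p = 0.0046, limma) and mt-Nd2 one of 0.99 ± 0.23 SE (adjusted p = 0.0119). For mt-Nd4l, at 21.9, 23.4 and 28.4 FPKM in control and 64.7, 64.9 and 45.4 FPKM in TAI mice, the call (adjusted p = 0.0422) was lost without any 1 control or TAI mouse, without TAI/IVIg mouse 2, and with the replicate number as a block, where 4 mitochondrial members were called.

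The mitochondrial members of complexes IV and V were not called in TAI mice, although mt-Co2, mt-Co3, mt-Atp6 and mt-Atp8 were without control mouse 1, where 8 mitochondrial members were called in place of 5. mt-Co1, the catalytic subunit of complex IV and the most abundant member, was at 11724, 10512 and 10475 FPKM in control mice, 16745, 17604 and 14485 FPKM in TAI mice and 14892, 17979 and 24275 FPKM in TAI/IVIg mice. Its irradiated mice did not overlap the control mice, but the log2 fold change of 0.58 had an adjusted p of 0.127 (limma), and it turned negative under quantile normalization. The log2 fold changes of mt-Co2 and mt-Co3 were 0.86 (adjusted p = 0.0901) and 0.65 (adjusted p = 0.195). For the ATP synthase pair they were 1.01 for mt-Atp6 (adjusted p = 0.0685) and 1.27 for mt-Atp8 (adjusted p = 0.0552). Of the other complex I genes, mt-Nd1 had 0.53 (adjusted p = 0.145) and mt-Nd6 0.70 (adjusted p = 0.0961). mt-Nd3 was the exception in sign, at 71.3, 76.6 and 82.0 FPKM in control and 62.7, 74.6 and 74.0 FPKM in TAI mice (log2 fold change -0.12, adjusted p = 0.661), and its sign turned positive with equal library medians, quantile normalization or median-ratio library sizes.

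Reads of several of these genes are uncertain. mt-Atp8 and mt-Atp6 overlap on the plus strand over 43 bases of the mitochondrial genome (GRCm38, GENCODE M21, chrM:7927-7969), the last 43 bases of the first gene being the first of the second, with the start codon of mt-Atp6 in capitals:
mt-Atp8 and mt-Atp6 overlap: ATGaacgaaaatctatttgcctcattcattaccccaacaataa
mt-Nd4l and mt-Nd4 share 7 bases, and mt-Nd5 shares 14 with mt-Nd6, which lies on the opposite strand; library strand was not given in the sources used here. Several genes also have copies in the nuclear genome. mt-Co2, mt-Co3, mt-Atp6, mt-Nd3 and mt-Nd4l matched an annotated nuclear copy with at most 0.5% of aligned bases mismatched over 99.0 to 99.9% of their length, mt-Nd4 over 63.6% and mt-Co1 over 31.3%, all on chromosome 1. The first 5 were listed at mean levels of 50.9 to 627 FPKM, against 15410 FPKM for mt-Co1, and their copies at 43.8 to 314 FPKM. By contrast, mt-Nd1, mt-Nd6, mt-Cytb and mt-Atp8 had no copy of at least 95% identity over at least 75 bases among the annotated transcripts, and those of mt-Nd2 and mt-Nd5 differed by more. So of the 5 genes called, mt-Cytb, mt-Nd2 and mt-Nd5 had no near-identical copy among the annotated transcripts. Copies outside the annotation were not sought.

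Per complex, the ratio of the geometric mean FPKM of mitochondrial members to that of nuclear members was higher in the irradiated mice. For complex I it was 10.2 ± 2.15 in control mice, 34.9 ± 3.79 in TAI mice and 34.2 ± 6.23 in TAI/IVIg mice (SD, n = 3). The same ratio for complex III was 21.7 ± 4.196 in control mice, 94.8 ± 6.63 in TAI mice and 91.1 ± 12.3 in TAI/IVIg mice. For complex IV it went from 7.80 ± 2.76 to 17.7 ± 0.692 and 16.8 ± 3.29, and for complex V from 0.828 ± 0.365 to 3.45 ± 1.001 and 3.20 ± 0.798. As a single pair, mt-Cytb over Uqcrc2 was 27.1 ± 5.20 in control mice, 154 ± 14.1 in TAI mice and 169 ± 41.2 in TAI/IVIg mice. These FPKM ratios carry the uncertain mitochondrial levels and are read between groups, not between complexes.

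TAI/IVIg and control mice were compared to see which members stood apart from untreated tissue when irradiated mice had also received immunoglobulin; the control mice are the same as above. Of the 99 members, 53 were called lower, where 37.4% of all genes tested were, and 15 were called higher, where 9.06% were; the higher calls numbered 8 without control mouse 2, control mouse 3 or TAI/IVIg mouse 3. The nuclear median was -0.62 and the mitochondrial median 1.16, beside -0.39 over all genes tested. With equal library medians 19 nuclear members were called lower with a median of -0.13, and 15 members of both genomes were called higher. Of all 13056 genes tested, 1894 were called lower and 2880 higher under that scaling, and their median was 0.10. Among the called members only Ndufb7 changed sign. Lower calls numbered 25 of 35 in complex I, 7 of 8 among its assembly factors, 3 of 4 in complex II, 4 of 8 in complex III, 4 of 14 in complex IV and 9 of 16 in complex V. The core of complex I was called in full, 7 of 7 (median -1.11).

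Members with the smallest adjusted p in this comparison are given here by complex. Ndufc2 had a log2 fold change of -1.33 (adjusted p = 0.000693, limma), Ndufa10 -1.60 (adjusted p = 0.000902) and Ndufv2 -1.11 (adjusted p = 0.000949). In complex III, Uqcrc2 stood at -1.20 (adjusted p = 0.00222), Uqcrfs1 at -0.93 (adjusted p = 0.00507) and Uqcr10 at -0.90 (adjusted p = 0.00718). Sdha, Sdhc and Sdhd had -0.73, -0.58 and -0.79 (limma adjusted p = 0.0102, 0.0152 and 0.022); the Sdhd call was lost without control mouse 1 or 2 and that of Sdhc without control mouse 2. In complex V the 3 were Atp5g2 at -1.23, Atp5f1 at -0.81 and Atp5g1 at -1.25 (limma adjusted p = 0.00225, 0.00434 and 0.0061). Cox5a, Cox5b and Cox7a2 were called lower in complex IV, at -0.89, -0.80 and -0.61 (adjusted p = 0.00292, 0.00441 and 0.0214), the last not without control mouse 2. With equal library medians or median-ratio library sizes, the calls of Cox5a, Cox5b, Cox7a2, Uqcrfs1, Uqcr10, Sdha, Sdhc, Sdhd and Atp5f1 were all lost, whereas those of Ndufc2, Ndufa10, Ndufv2, Uqcrc2, Atp5g1 and Atp5g2 held under every alternative tried.

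Some members were not called in this comparison. Cox6a1, whose TAI/IVIg mice overlapped the control mice, was at 275, 359 and 446 FPKM against 374, 430.1 and 349 FPKM in control mice (log2 fold change -0.12, adjusted p = 0.626, limma), and the sign turned positive with equal library medians or median-ratio library sizes. The same scalings turned the sign of Atp5d (-0.25), Uqcrq (-0.35), Sdhb (-0.42) and Ndufaf8 (-0.42), none of which was called. Mice of the 2 groups overlapped for Atp5d, whereas for Uqcrq, Sdhb and Ndufaf8 all TAI/IVIg mice lay below the control mice. Ndufa3 had the value nearest 0 in complex I (0.00).

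All mitochondrial members except mt-Nd3 were called higher in TAI/IVIg than in control mice. Log2 fold changes ran from 0.78 for mt-Co1 (adjusted p = 0.0413, limma) and 0.78 for mt-Nd1 to 1.41 for mt-Cytb (adjusted p = 0.0025), with 0.10 for mt-Nd3. The sign of mt-Co1 turned negative under quantile normalization here too. mt-Nd4 stood at 1.38, mt-Nd5 at 1.35, mt-Nd2 at 1.16, mt-Nd6 at 1.07 and mt-Nd4l at 1.27. Values for complexes IV and V were 1.12 for mt-Co2, 1.02 for mt-Co3, 1.27 for mt-Atp6 and 1.39 for mt-Atp8. The groups overlapped for mt-Co3, mt-Atp8 and mt-Nd3. With no filter 4 mitochondrial members were called. Only 5 were called without control mouse 2, control mouse 3 or TAI/IVIg mouse 3, and the calls of mt-Nd2, mt-Nd4, mt-Nd5 and mt-Cytb held without any 1 mouse.

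The last comparison, TAI/IVIg with TAI mice, asked what immunoglobulin had changed after the same irradiation. No member was called in either direction at an adjusted p under 0.05 by limma, and 0.0% of all genes tested were called higher and 0.0% lower. Without adjustment, 9 members passed 0.05 as higher and 0 as lower, beside 214 and 1466 of all genes tested. In sign, 91 of 99 members were higher in TAI/IVIg mice, 78 of 86 nuclear and 13 of 13 mitochondrial, with medians of 0.27 and 0.22, whereas 3971 of 13056 genes tested were higher and the median of all was -0.13. Among the complex I assembly factors 7 of 8 were lower in sign, with a median of -0.09 near that of all genes, and 35 of 35 nuclear complex I subunits were higher (median 0.25). With equal library medians, quantile normalization or median-ratio library sizes, 6 of the 8 factors were higher in sign. Without TAI/IVIg mouse 3 the mitochondrial members that were higher numbered 8 of 13, with a median of 0.01. Limma voom on the recovered reads also made 0 calls among the members.

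The 3 members with the smallest unadjusted p were Cox7a1, Cox5a and Ndufa1. Their log2 fold changes were 0.64 ± 0.41, 0.52 ± 0.37 and 0.61 ± 0.48 (95% interval, limma), with adjusted p = 0.353, 0.353 and 0.359. For all 3, every TAI/IVIg mouse was above every TAI mouse, as was also so for Sdhc, Uqcrb and Ndufa4. These were 6 of 99 members, and 0 members had every TAI/IVIg mouse below every TAI mouse. Of all 13056 genes tested, 404 lay above and 2096 below in that way. On the lower side the smallest unadjusted p fell to the assembly factors Ndufaf7 (1.73, 2.12 and 2.83 FPKM in TAI mice, 1.33, 1.83 and 1.36 FPKM in TAI/IVIg mice, log2 fold change -0.36, adjusted p = 0.419, limma), Ndufaf4 (-0.25, adjusted p = 0.621) and Ndufaf2 (-0.12, adjusted p = 0.775); that of Ndufaf2 turned positive under 3 of the other scalings. Values nearest 0 by complex were Ndufa11 (0.01), Ndufaf3 (-0.05), Sdha (0.23), Uqcr11 (0.07), Cox7a2l (0.18), Atp5g2 (-0.02) and Atp5s (0.01).

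The TAI/IVIg mice were not alike. Mouse 1 had the lowest value of the 3 for 84 of 86 nuclear members, beside 5967 of 13056 genes tested (45.7%). Mice 2 and 3 were both above every TAI mouse for 72 of 86 nuclear members (83.7%), beside 15.3% of all genes tested. Mouse 1 was above every TAI mouse for 6 of the 86, beside 1506 of 13056 genes tested. Relative to the TAI mean, the median difference over the nuclear members was -0.07 in TAI/IVIg mouse 1, 0.41 in mouse 2 and 0.46 in mouse 3 on the log2(FPKM + 1) scale, beside 0.78, 1.07 and 0.83 in the control mice. For complex IV the same medians were -0.04, 0.47 and 0.62 in the TAI/IVIg mice, and for the complex I assembly factors -0.21, 0.09 and -0.12. Over the mitochondrial members they were -0.20, 0.19 and 0.64. Mouse 2 reached the lowest control value or more for 12 of 86 nuclear members and mouse 3 for 18, beside 6191 and 4388 of 13056 genes tested. The same mice had the lowest smooth muscle marker sums, 345 and 135 FPKM against 596 to 852 FPKM in TAI mice, with 9 of 9 markers lower in TAI/IVIg than in TAI mice by unadjusted p (under 0.05) and 0 by adjusted p. Stromal sums were 45.9 and 24.4 FPKM, and 48.2 FPKM in mouse 1, against 73.5 to 96.7 FPKM in TAI mice, with 6 of 8 markers lower at that p. The enterocyte sum of mouse 1 was 51488 FPKM, the highest of the TAI/IVIg mice. Goblet and Paneth sums were 866 to 2576 FPKM against 3029 to 6059.8 FPKM, with 10 of 10 markers lower at that p. The part of these markers in the difference between mice was not tested.

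**Figure D5:**
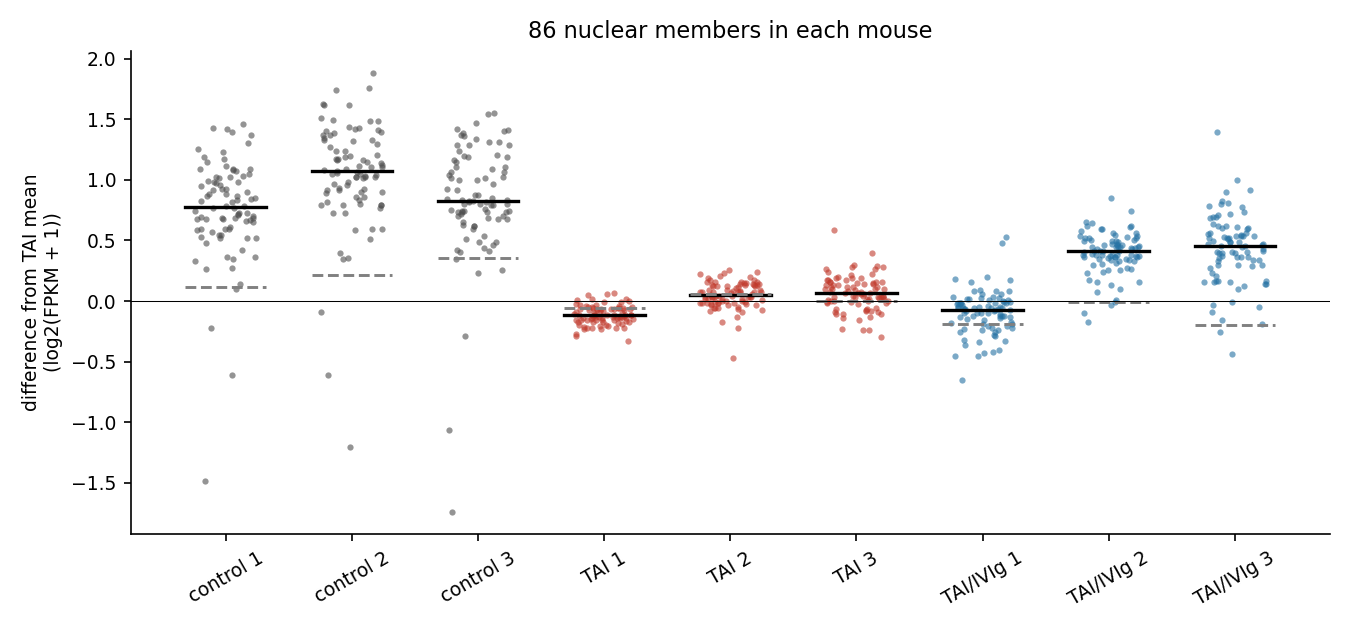
Difference of each of the 86 nuclear members from its mean over the TAI mice (log2(FPKM + 1) scale) in each of the 9 mice; points are genes, the black line is their median and the dashed grey line the median of all 13056 genes tested in that mouse. TAI/IVIg mouse 1 lies with the TAI mice (median -0.07), mice 2 and 3 lie above them (0.41 and 0.46), and the control mice lie highest (0.78 to 1.07).

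Lists of genes around the respiratory chain were followed in the same fit; the shares of all genes tested to read them against are 26.1% lower and 8.81% higher in TAI and 37.4% and 9.06% in TAI/IVIg against control mice. The mitochondrial ribosome, which translates the 13 mitochondrial messages, had 71 of 77 proteins called lower in TAI mice and 0 higher (median -1.07), with the smallest adjusted p for Mrpl35 (-1.72), Mrpl27 (-0.96) and Mrps18c (-1.06). Of 45 further assembly factors and electron carriers tested, 35 were called lower and 0 higher. Cyc1, the cytochrome c1 of complex III, was at 102, 135 and 110.2 FPKM in control mice, 39.2, 43.6 and 36.6 FPKM in TAI mice and 35.1, 61.8 and 52.9 FPKM in TAI/IVIg mice (log2 fold change -1.51 for TAI). The copper chaperone relative Cmc2 (-1.44) and the haem A synthesis enzyme Cox10 (-1.47) had the smallest adjusted p of that list, 9.16e-04 and 0.00147 (limma). In TAI/IVIg against TAI mice neither list held a call, and their medians were -0.08 and 0.08.

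Of 29 genes that copy, transcribe and process mitochondrial DNA and RNA, 17 were called lower in TAI mice and 0 higher (median -0.68), and 23 in TAI/IVIg mice (median -0.82). Lrpprc, which stabilises mitochondrial messages, was at 4.48, 8.22 and 7.97 FPKM in control mice, 1.88, 2.44 and 1.92 FPKM in TAI mice and 0.785, 2.40 and 1.22 FPKM in TAI/IVIg mice. It was below the control range in all irradiated mice (log2 fold change -1.32, limma adjusted p = 0.00754 for TAI), as were its partner Slirp (-0.74) and Fastkd2 (-0.95). These fell in the same libraries in which most mitochondrial messages were higher. Among 11 regulators of mitochondrial biogenesis tested, only the coactivator Ppargc1b was called in TAI mice, as lower (-0.98, limma adjusted p = 0.00550). It was at 1.601, 1.70 and 2.11 FPKM in control and 0.322, 0.569 and 0.385 FPKM in TAI mice. Hcfc1 (-0.96) and Pprc1 (-1.09) were called lower as well in TAI/IVIg mice. Ppargc1b and Slirp reached 1 FPKM in the control mice only. The filter kept them through the group where they were high, so their lower calls carry little weight.

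The citric acid cycle and pyruvate entry list had 13 of 19 genes called lower in TAI mice (median -0.99), among them Idh2 (-1.55), Dld (-1.35) and Suclg2 (-1.29), and 1 higher, pyruvate carboxylase Pcx (1.03, limma adjusted p = 0.00260). Of 7 genes that feed ubiquinone or uncouple, 4 were called lower, including the electron transfer flavoprotein genes Etfa (-1.14) and Etfb (-1.04) and the uncoupling protein relative Ucp2 (-0.74); Gpd2 was called higher in TAI/IVIg mice (0.51). Carriers and pores had 3 of 6 lower, Vdac3 (-1.19), Vdac1 (-1.25) and the phosphate carrier Slc25a3 (-0.70), and Slc25a4 was called lower in TAI/IVIg mice (-1.35). Glycolysis, outside the mitochondrion, had 11 of 23 called lower and 0 higher in TAI mice (median -0.41), with the smallest adjusted p for Pgam1 (-1.52), Pfkl (-0.70) and Gpi1 (-0.86). In TAI/IVIg against control mice the counts were 13 lower and 1 higher of 19, 3 lower and 1 higher of 7, 3 lower of 6 and 9 lower of 23, the last (glycolysis) close to the 37.4% of all genes. None of these lists held a call in TAI/IVIg against TAI mice.

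Some nuclear members also share sequence with other genes. At 95% identity over at least 75 bases, 27 of 86 had an annotated copy elsewhere and 7 had one over more than 50% of the transcript. Atp5l was listed at a mean of 17.9 FPKM beside 80.6 FPKM summed over its copies, Cox7c at 137 FPKM beside 139 FPKM, and Ndufa12 at 14.9 FPKM beside 41.4 FPKM. Atp5g1 was listed at 10.55 FPKM beside 66.5 FPKM, and Ndufab1 at 7.08 FPKM beside 20.7 FPKM. The levels of all these genes are uncertain. So are the ranks of Atp5g1 and Ndufab1 as least abundant, and the c-subunit shares. Exons were shared with another gene in 39 of 99 members, for over 20% of their length in 5: Ndufaf2, Atp5o, Ndufb6, Ndufa13 and mt-Atp8. Ndufb2, a complex I subunit outside the filter, was listed at 0.900, 1.498 and 1.16 FPKM in control mice, with 7.94% of its exon length shared.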

How the data were processed

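RNA sequencing of jejunum from 9 mice in 3 groups was deposited by the authors as 1 table of FPKM values per gene. The submitters' processing notes name FastQC, Trimmomatic, STAR, featureCounts and DESeq2 and the builds mm10 and GRCm38; how FPKM was computed, the annotation and the library strand are not given in the sources used here, and 0 columns were left out. Dividing out GENCODE M21 exon lengths and the library total gave whole reads (within 0.02) for 96.7% of 31685 genes, and a search over lengths for the remaining 1059, for totals of 16284531 to 18244739 reads. These reads gave shares of reads and a limma voom alternative.

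Ensembl identifiers were matched to GENCODE M21 symbols (31146 matched). Log2(FPKM + 1) values of 13056 genes with at least 1 FPKM in at least 3 mice were fitted with limma 3.58.1 (R 4.3.3), trended empirical Bayes, all 9 mice in 1 fit, threshold 0.05 on Benjamini-Hochberg adjusted p. The fit was also run on simulated reads in which few genes were changed. That run did not copy the broad change between these groups, so it cannot decide between the scalings. Lists are described by counts and medians, without a list test. Copies were sought with blastn 2.17.0 in GENCODE M21 transcripts; promoter sequences are from RefSeq (GRCm38.p6), found for 73 of 86 nuclear members.

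The members and lists were chosen with earlier results of these data known. Named genes were every mitochondrial member; per complex, the most and least abundant nuclear member and that of the smallest change; per complex and comparison, up to 3 nuclear members in each direction of the smallest adjusted p whose mice do not overlap; isoform pairs; where no member passed, the 3 of the smallest unadjusted p in each direction; and up to 3 per direction in a pathway list. The members said to be nearest the limit from inside, the genes outside the filter, those with uncertain copies and the 5 promoters were named outside that rule. They were named after their values were seen. The labels do not give the replicate numbers as a pairing. Between control and TAI mice, deviations from the group means correlated best at the same number, but weakly (0.271, 0.241 and 0.308). TAI/IVIg mice 2 and 3 correlated best at another number. Whether the numbers mark a pairing was not tested. Alternatives covered the pseudocount, filter, scaling, samples fitted, trend, replicate block, voom and leaving out each mouse.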

Additional observations from a re-analysis of the deposited data

How the results depend on the processing

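Counts of lower calls moved by over 1.5 times under 2 scalings only. With library medians set equal and with limma voom on recovered reads and median-ratio library sizes, lower calls were 39 and 47 in TAI and 19 and 21 in TAI/IVIg against control mice, nuclear medians -0.61 and -0.686, and -0.131 and -0.135, and mitochondrial medians 1.277 and 1.232, and 1.648 and 1.674; the second gave a nuclear median of 0.545 for TAI/IVIg against TAI mice, and quantile normalization -0.684 in TAI mice. Over all 13056 genes tested, those 2 scalings gave 1823 and 2109 lower calls in TAI and 1894 and 2237 in TAI/IVIg against control mice. With no filter, 31685 genes were adjusted over and higher calls were 4 and 7, beside 1075 and 1078 of all genes. Leaving out each mouse gave 6 to 10 higher and 54 to 80 lower calls in TAI mice (medians -0.944 to -0.813 nuclear and 0.83 to 1.128 mitochondrial), 8 to 14 and 40 to 55 in TAI/IVIg against control mice (-0.723 to -0.426 and 0.869 to 1.395), and 0 in TAI/IVIg against TAI mice (0.17 to 0.429 and 0.012 to 0.435). Of the named calls, 31 of 44 in TAI and 23 of 34 in TAI/IVIg mice held without any 1 mouse, and 26 and 15 also held under every other alternative.

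Signs turned as follows, in log2, with equal medians and then voom with median-ratio sizes. Against control, TAI/IVIg values were Atp5d 0.243, 0.263; Cox6a1 0.374, 0.399; Ndufaf8 0.066, 0.053; Sdhb 0.075, 0.09; and Uqcrq 0.138, 0.157. With quantile normalization between these, mt-Nd3 0.166, 0.112, 0.123 in TAI mice, and Ndufaf2 0.08, 0.15, 0.025, Ndufaf3 0.153, 0.174, 0.198 and Atp5g2 0.18, 0.057, 0.237 for TAI/IVIg against TAI mice. Quantile normalization gave mt-Co1 -0.313 and -0.313 against control; mt-Co1 ranked 1 in every control library and 1 to 3 in the irradiated ones, so that normalization could not place it higher. Atp5s was -0.004 with a pseudocount of 0.1 and -0.012 with voom and total library sizes. Without 1 mouse, ranges that crossed 0 were mt-Nd3 -0.104 to 0.313, Ndufa3 -0.124 to 0.164 and Cox6a1 -0.285 to 0.063 against control, and Ndufa11 -0.055 to 0.109, Ndufaf3 -0.160 to 0.036, Uqcr11 -0.097 to 0.323, Atp5g2 -0.155 to 0.170 and Atp5s -0.175 to 0.185 against TAI mice. Except for mt-Co1, the cause was not tested, and that holds for the counts with no filter too.

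Mitochondrial members took 6.126%, 10.39% and 11.91% of summed FPKM in control, TAI and TAI/IVIg mice, which weights short transcripts up, and 2.726 to 2.963%, 4.602 to 5.044% and 4.863 to 6.33% of reads without 1 mouse. The Atp5g3 percentage of Atp5g2 in TAI mice was 602.8 with a pseudocount of 1. Without 1 mouse, in control, TAI and TAI/IVIg mice, it ranged 491.1 to 585.6, 617.8 to 638.2 and 871.1 to 989.2, that of Cox6b2 over Cox6b1 2.481 to 2.801, 12.65 to 17.6 and 11.22 to 17.31, and that of Cox7a1 over Cox7a2 20.3 to 23.96, 68.56 to 75.89 and 85.67 to 97.84. With the replicate number as a block, lower calls were 79 in TAI and 61 in TAI/IVIg mice, and mitochondrial calls 4 and 9, against control, and 0 between the irradiated groups. With 3 mice a group, small differences could not be resolved.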

Other observations

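The mitochondrial ribosomal RNAs lie outside the members. mt-Rnr1 (12S) was at 2264, 2415 and 1826 FPKM in control mice, 2359.8, 2925 and 2725 FPKM in TAI mice and 3098, 2052 and 3069 FPKM in TAI/IVIg mice (log2 fold change 0.30 for TAI, limma adjusted p = 0.321). mt-Rnr2 (16S) was at 1004, 895 and 775 FPKM, 2048, 2329 and 2390.2 FPKM and 2555, 1749 and 2547 FPKM in the same order (1.34, limma adjusted p = 0.00237). Its irradiated mice all lay above the control mice, whereas those of mt-Rnr1 overlapped them; the difference between the genes was not tested.

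Reads listed for some nuclear copies of mitochondrial genes also differed between groups. Gm28439, identical to part of mt-Nd4, had a log2 fold change of 1.62 in TAI mice (limma adjusted p = 0.00147), and Gm10222, identical to mt-Nd4l, one of 1.76 (0.00156). Gm10925, the copy of mt-Atp6, had 0.81 (0.0336). Gm4076, a copy of part of mt-Nd5, and Gm13340, of mt-Co1, were called higher too (limma adjusted p = 0.0287 and 0.0349). The copies Gm28438 of mt-Nd3, Gm29216 of mt-Co1, Gm28661 of mt-Co2 and Gm28437 of mt-Co3 were not called (limma adjusted p = 0.213, 0.184, 0.110 and 0.0974). Neither were Gm13339 of mt-Nd2 and Gm13341 of mt-Co2 (limma adjusted p = 0.196 and 0.207). How reads were divided between each gene and its copy was not tested.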
